A study of Caenorhabditis elegans with 14 samples.

Results

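The 10 genes described here, skr-1, skr-2, skr-7, skr-8, skr-9, skr-10, skr-12, skr-13, skr-14 and skr-15, belong to the Skp1-related (skr) family of Caenorhabditis elegans. They were found by gene name among the 41875 gene entries of the deposited expression table, and 11 further skr genes of the 21 in the family serve for comparison. The set was chosen by measured values: skr-7, skr-14 and skr-15 had some of the lowest log2 fold changes of all genes in the mutant-labelled groups relative to wild type. The differences between the strains are therefore given for these genes as a description, with no test. Skp1 is the adaptor of SCF ubiquitin ligases: it joins the cullin CUL-1 to an F-box protein, and the F-box protein brings the substrate to be tagged with ubiquitin. The worm has many Skp1 copies where yeast and mammals make do with very few. SKR-1 and SKR-2 are the copies that act broadly, in embryonic viability, the control of cell proliferation and meiosis, and are also part of the synaptonemal complex that holds paired chromosomes together. RNA interference against skr-7, skr-8, skr-9 and skr-10 disturbs embryonic and larval development and cell proliferation, and no role is given here for skr-12, skr-13, skr-14 and skr-15.

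RNA was sequenced from gravid adult worms on day 1 of adulthood, grown at 20 °C on E. coli OP50. The strain labelled pycr-1(wrm22) carries an allele of pycr-1, whose product catalyses the final step of proline synthesis, and was set against the wild-type strain Bristol N2. From each strain, polysomal RNA (mRNA that carried at least 3 ribosomes, pooled from a gradient, with cycloheximide in the lysis to hold ribosomes in place) and total RNA were taken. The libraries numbered 4 of mutant-labelled polysomal, 4 of mutant-labelled total, 3 of wild-type polysomal and 3 of wild-type total RNA, each from about 12000 whole worms, and what wrm22 changes is not given in the labels.

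All FPKM values (fragments per unit of transcript length and of library yield, so that levels can be set beside each other between genes) are the authors' pooled value for a group, with no value per library, so no spread over libraries can be shown and depth is unknown. Errors after ± are SEs of log2 differences, worked back from the deposited test statistics after dividing the variance of a group by the 3 or 4 libraries in it. That division was chosen after seeing the values, and statements on 2 implied SE rest on it: undivided, the SE of skr-7 between the strains in polysomal RNA is 0.37 in place of 0.20, and that of skr-14 0.45 in place of 0.24. The labels do not say whether the libraries came from separate cultures, so p-values measure only the spread between these libraries. In the authors' deposited table, pycr-1 itself stood at 40.8 and 20.3 FPKM in mutant-labelled polysomal and total RNA, against 12.6 and 4.91 FPKM in wild-type polysomal and total RNA, so its level cannot check the labels and directions rest on them. Over genes with at least 5 FPKM in both groups compared, the median log2 fold change of mutant-labelled over wild type was -0.26 in polysomal and -0.35 in total RNA, and that of polysomal over total was 0.11 in mutant-labelled and 0.04 in wild-type worms. Centred values have these medians subtracted. In whole-worm RNA, fewer cells of a type and less RNA per cell cannot be told apart.

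The 10 genes fell into a pair of abundant genes and 8 genes of low level. The abundant pair, skr-1 and skr-2, each have 3 exons, lie next to each other on chromosome I, and code over 531 and 525 bases. The 8 others have a single exon and no annotated untranslated region, with coding lengths from 507 to 585 bases. Single-exon genes are uncommon: without the members, they made up 2.33% of the protein-coding genes tested between the strains in total RNA.

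In build WBcel235 (Ensembl release 115), 6 of the 8 single-exon genes sit in 3 head-to-head pairs. In each pair a gene of 585 bases and a gene of 507 or 519 bases are transcribed away from each other. On chromosome V, skr-14 (4421069 to 4421575, minus strand) faces away from skr-7 (4422427 to 4423011, plus strand), with 851 bases between the starts. On chromosome IV, skr-13 (17162097 to 17162615, minus strand) faces away from skr-9 (17163573 to 17164157, plus strand), with 957 bases between. Next to them, skr-8 (17165250 to 17165834, minus strand) faces away from skr-12 (17167274 to 17167792, plus strand), with 1439 bases between. No protein-coding gene is annotated between the starts of any pair, and the 4 genes on chromosome IV lie within 5696 bases. The remaining members are skr-10 (chromosome IV, 15946807 to 15947385, plus strand, coding length 579 bases) and skr-15 (chromosome II, 3824155 to 3824709, plus strand, coding length 555 bases).

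**Figure D1:**
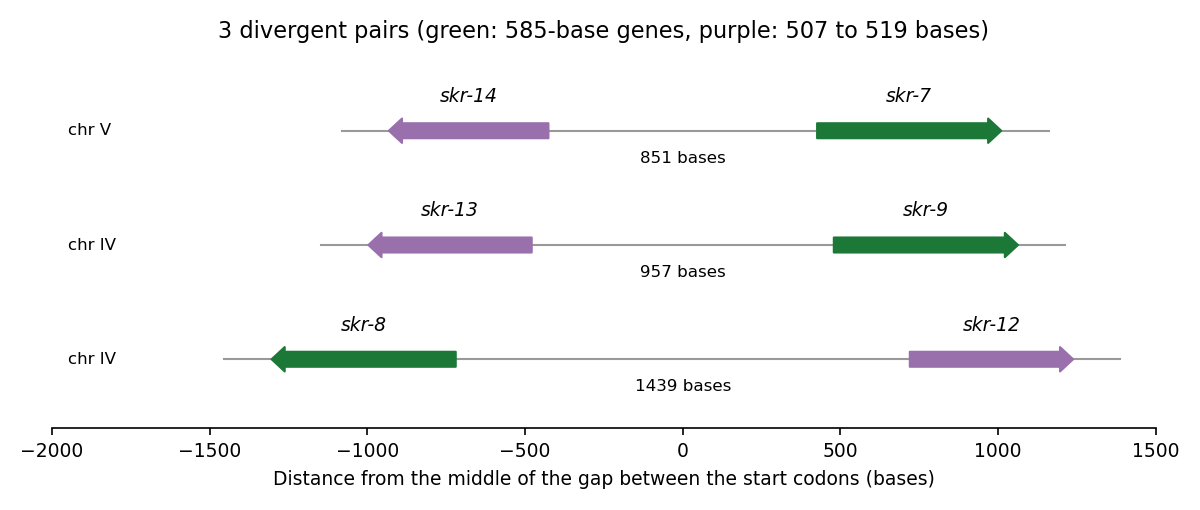
Map of the 3 divergent pairs of single-exon skr genes, drawn to scale, with distance in bases from the middle of the gap between the start codons on the horizontal axis and arrows for the coding sequence and its direction. Each pair joins a gene of 585 bases (green) to a gene of 507 to 519 bases (purple), with gaps of 851, 957 and 1439 bases.

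The abundant pair carried most of the RNA of these 10 genes. skr-2 stood at 174 and 127 FPKM in mutant-labelled polysomal and total RNA, against 229 and 165 FPKM in wild-type polysomal and total RNA. skr-1 stood at 152 and 134 FPKM in mutant-labelled polysomal and total RNA, against 176 and 156 FPKM in wild-type polysomal and total RNA. The order of skr-1 and skr-2 depended on the group: their gap exceeded 2 implied SE in wild-type polysomal RNA only, where skr-2 was 0.38 ± 0.16 higher on the log2 scale. The deposited interval of skr-1 is 3454 bases long and overlaps the neighbouring gene calm-1, so part of the fragments counted there may not be skr-1's.

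skr-7 was the most abundant of the single-exon genes. It stood at 12.10 and 5.29 FPKM in mutant-labelled polysomal and total RNA, against 45.6 and 19.99 FPKM in wild-type polysomal and total RNA. Its head-to-head partner skr-14 stood at 5.82 and 2.54 FPKM in mutant-labelled polysomal and total RNA, against 25.2 and 11.2 FPKM in wild-type polysomal and total RNA. Both genes were thus highest in wild-type polysomal RNA and lowest in mutant-labelled total RNA, and each was lower in both mutant-labelled groups than in either wild-type group.

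The level of skr-7 over that of skr-14 differed little between the groups. On the log2 scale it was 1.05 ± 0.22 and 1.06 ± 0.28 in mutant-labelled polysomal and total RNA, against 0.85 ± 0.22 and 0.84 ± 0.21 in wild-type polysomal and total RNA. skr-7 was higher than skr-14 in each of the 4 groups, by more than 2 implied SE.

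The other members of the family of 585-base and 579-base genes were weaker. skr-8 stood at 3.05 and 1.15 FPKM in mutant-labelled polysomal and total RNA, against 8.59 and 4.35 FPKM in wild-type polysomal and total RNA. skr-9 stood at 2.16 and 0.707 FPKM in mutant-labelled polysomal and total RNA, against 6.69 and 2.93 FPKM in wild-type polysomal and total RNA. Of the 10 genes, skr-9 had the lowest level in mutant-labelled total RNA. skr-10, which has no partner of the family beside it, stood at 4.03 and 1.97 FPKM in mutant-labelled polysomal and total RNA, against 9.85 and 6.02 FPKM in wild-type polysomal and total RNA. In each of the 4 groups it came next below skr-14.

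Among the shorter genes, skr-12 and skr-13 lay in the same range. skr-12 stood at 2.16 and 1.04 FPKM in mutant-labelled polysomal and total RNA, against 7.45 and 2.45 FPKM in wild-type polysomal and total RNA. skr-13 stood at 2.99 and 1.60 FPKM in mutant-labelled polysomal and total RNA, against 9.77 and 5.14 FPKM in wild-type polysomal and total RNA. The partners on chromosome IV are set beside each other in the same way. The log2 level of skr-9 over skr-13 was -0.47 and -1.18 in mutant-labelled polysomal and total RNA, against -0.55 and -0.81 in wild-type polysomal and total RNA. The log2 level of skr-12 over skr-8 was -0.49 and -0.15 in mutant-labelled polysomal and total RNA, against -0.20 and -0.83 in wild-type polysomal and total RNA. The SE of the gap between skr-12 and skr-8 was 0.36 in mutant-labelled total RNA and 0.28 in wild-type polysomal RNA, and whether these ratios differ between the groups was not tested.

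skr-15 lies alone on chromosome II. It stood at 1.56 and 0.909 FPKM in mutant-labelled polysomal and total RNA, against 6.32 and 3.02 FPKM in wild-type polysomal and total RNA, and was the lowest member in both polysomal groups. Its deposited interval spans 1467 bases against a coding length of 555 bases, and a longer model lowers a value scaled by length, so its place in the order is less certain than its differences between groups. From skr-10 downward, neighbours in the order of levels differed by less than 2 implied SE in every group, except for skr-8 above skr-15 in wild-type total RNA (0.52 ± 0.26 on the log2 scale). skr-14 was above skr-10 by more than 2 implied SE in every group except mutant-labelled total RNA, where the gap was 0.37 ± 0.31.

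**Figure D2:**
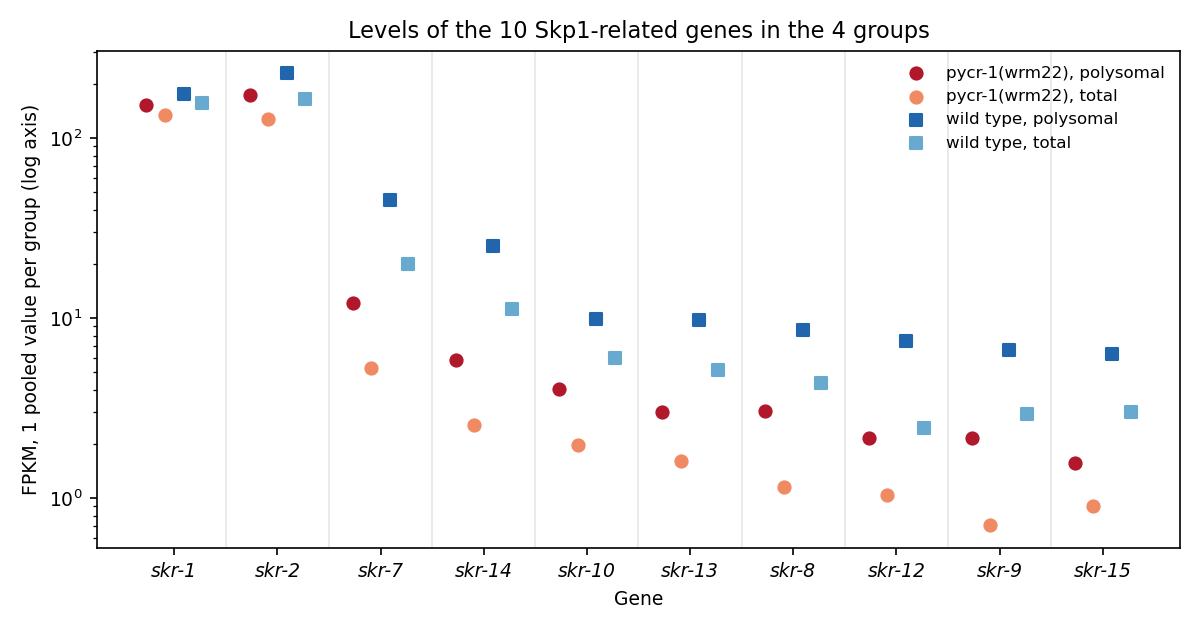
FPKM of the 10 genes (log axis, 1 authors' pooled value per group and no error bars) in polysomal and total RNA of pycr-1(wrm22) worms (circles) and wild-type worms (squares). skr-1 and skr-2 sit between 127 and 229 FPKM in all groups, and for each of the 8 others the mutant-labelled value lies below the wild-type value of the same fraction and the polysomal value above the total value of the same strain.

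Summed over the 8 single-exon genes, the level was 33.9 and 15.2 FPKM in mutant-labelled polysomal and total RNA, against 119.4 and 55.1 FPKM in wild-type polysomal and total RNA. They made up 9.40% and 5.50% of the 10 genes' sum in mutant-labelled polysomal and total RNA, against 22.8% and 14.7% in wild-type polysomal and total RNA. The sum of skr-1 and skr-2 was 326 and 261 FPKM in mutant-labelled polysomal and total RNA, against 405 and 321 FPKM in wild-type polysomal and total RNA.

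Between the strains, each of the 8 single-exon genes was lower in mutant-labelled than in wild-type worms in both fractions. This is the pattern by which the set was assembled. In the authors' deposited table their log2 fold changes ran from -2.11 to -1.29 in polysomal RNA and from -2.14 to -1.24 in total RNA. Their medians were -1.75 and -1.83 in polysomal and total RNA (-1.49 and -1.47 when centred), against -0.07 and -0.04 over all tested entries. The SE ran from 0.20 for skr-7 in polysomal RNA to 0.38 for skr-9 in total RNA, so the order of the 8 genes as a whole is not resolved.

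skr-14 was the lowest of them in both fractions, at -2.11 ± 0.24 in polysomal and -2.14 ± 0.27 in total RNA in the authors' deposited table. From the lowest fold change upward, it ranked at place 29 of 12758 entries in polysomal and 30 of 13435 in total RNA, counting entries at 1 FPKM or more in at least 1 of the groups. skr-15 was at -2.02 ± 0.24 in polysomal and -1.73 ± 0.26 in total RNA, at place 36 in polysomal RNA. skr-7 was at -1.91 ± 0.20 and -1.92 ± 0.22, at places 50 and 52. These 3 values drew attention to the set.

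The 5 other single-exon genes had not been named in that choice. They were nonetheless picked with earlier results of these data known, so their values and places are a description too. In the authors' deposited table, skr-9 was at -1.63 ± 0.30 in polysomal and -2.05 ± 0.38 in total RNA, at place 143 in polysomal RNA. skr-8 was at -1.49 ± 0.28 and -1.92 ± 0.32, at places 215 and 51. skr-13 was at -1.71 ± 0.28 and -1.68 ± 0.30, at places 100 and 107. skr-12 was at -1.78 ± 0.29 and -1.24 ± 0.34, at places 75 and 277. skr-10 had the smallest polysomal difference of the 8, at -1.29 ± 0.26, and -1.61 ± 0.28 in total RNA, at places 320 and 121. skr-9 and skr-15 met the filter in total RNA through wild type alone, being below 1 FPKM in mutant-labelled worms, so their places there are left out.

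The abundant pair differed much less. In the authors' deposited table, skr-2 was at -0.39 ± 0.15 in polysomal and -0.38 ± 0.15 in total RNA (-0.14 and -0.03 when centred). skr-1 was at -0.21 ± 0.15 in both fractions, and centring turned its sign, to 0.05 in polysomal and 0.14 in total RNA. On the centred scale the pair therefore lay near the middle of expressed genes.

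By the authors' adjusted p under 0.05 from Cuffdiff, 9 of the 10 genes were lower in mutant-labelled polysomal RNA, beside 23.9% of all 14696 entries tested (14.8% were higher, 38.7% in all). In total RNA, 9 of the 10 were lower, beside 27.9% of 15557 entries (18.6% were higher, 46.5% in all). skr-1 was the exception in both. With a Wald test on the authors' statistic as it stands, 5 of the 10 were lower in each fraction. Of 14011 entries, 4.6% passed that test in polysomal and 5.25% in total RNA, in either direction. Since the set was assembled from these comparisons, nothing is read from the counts.

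**Figure D3:**
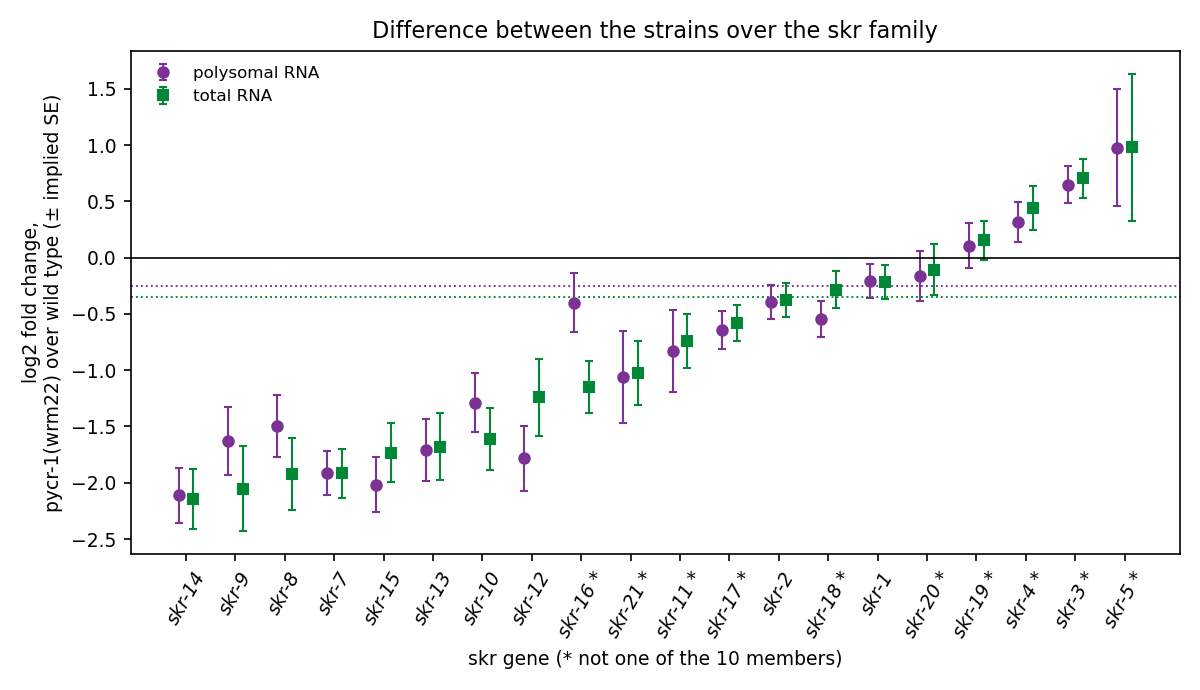
Log2 fold change of pycr-1(wrm22) over wild type (vertical axis) in polysomal (circles) and total RNA (squares) for the 20 skr genes tested, ordered by total RNA, with implied SE as bars, asterisks on the genes outside the set and dotted lines at the medians of expressed genes. The 8 single-exon members occupy the low end, skr-1 and skr-2 lie close to the dotted lines and skr-3 and skr-5 lie at the high end.

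The rest of the family was mixed. Of the other 11 skr genes, 10 were tested: 1 was higher and 3 were lower in mutant-labelled polysomal RNA, and 2 were higher and 4 lower in total RNA, by the adjusted p in the authors' deposited table. Their medians were -0.28 and -0.20 in polysomal and total RNA (-0.03 and 0.15 when centred). When centred and tested again with divided variances, 2 rose and 0 fell in polysomal and 3 rose and 2 fell in total RNA. With a Wald test on the authors' statistic as it stands, 0 passed in either fraction. skr-6 was listed at 0 in all groups and not tested.

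skr-3, skr-4 and skr-5 are known as partners of the cullin CUL-6 in the response to intracellular pathogens. skr-3 stood at 103 and 46.8 FPKM in mutant-labelled polysomal and total RNA, against 65.5 and 28.7 FPKM in wild-type polysomal and total RNA. It rose by 0.65 ± 0.16 and 0.71 ± 0.17 on the log2 scale in polysomal and total RNA (Cuffdiff adjusted p = 0.000207 and 0.000736 in the authors' deposited table). skr-4 rose in total RNA, by 0.44 ± 0.20 (Cuffdiff adjusted p = 0.0475), and was at 0.32 ± 0.18 in polysomal RNA. Its call in total RNA lay near the threshold. Rises among the other skr genes there numbered 1 in place of 2 with adjustment over the comparison alone, and 2 with a filter at 1 FPKM. skr-5 was at 0.98 ± 0.52 and 0.98 ± 0.65 and did not pass.

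Other single-exon genes of the family were mixed as well. Of the protein-coding skr genes outside the set, skr-16, skr-19, skr-20 and skr-21 also have a single exon. In the authors' deposited table, skr-21 fell in both fractions (-1.06 ± 0.41 and -1.03 ± 0.29 in polysomal and total RNA) and skr-16 fell in total RNA (-1.15 ± 0.23). skr-19 was at 0.10 ± 0.20 and 0.16 ± 0.17 and skr-20 at -0.16 ± 0.22 and -0.11 ± 0.23, and neither passed. skr-11, annotated as a pseudogene, fell in total RNA (-0.74 ± 0.24). Of the multi-exon genes, skr-17 fell in both fractions (-0.64 ± 0.17 and -0.58 ± 0.16) and skr-18 in polysomal RNA (-0.54 ± 0.16). On the scale of expressed genes these last falls were small, at -0.38 and -0.23 for skr-17 and -0.29 for skr-18 when centred.

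Over all single-exon protein-coding genes outside the set, 65 of 297 tested (21.9%) were lower in mutant-labelled polysomal RNA and 53 were higher. In total RNA, 71 of 331 (21.5%) were lower and 72 were higher. Their median log2 fold changes were -0.0026 and 0.03 in polysomal and total RNA.

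Genes beside the members were mixed. Y47D7A.2 and Y47D7A.9, which flank the pair on chromosome V at 309 and 523 bases, had 0.264 FPKM or less in every group and were not tested between the strains. Beside skr-15, F54D10.7 at 2858 bases was lower in mutant-labelled worms, at -1.12 in polysomal and -0.97 in total RNA in the authors' deposited table (Cuffdiff adjusted p = 0.000207 in both). Beside skr-10, Y105C5B.11 at 5303 bases was higher, at 1.25 and 1.58 (Cuffdiff adjusted p = 0.000207 in both).

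The comparison of polysomal with total RNA within a strain was not used to assemble the set, although all 4 groups also enter the comparisons that were. It asks how much of a gene's RNA sat on 3 or more ribosomes. FPKM is scaled within each library, so a ratio above 1 means a larger share of polysomal than of total RNA, not a fraction of molecules on ribosomes.

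The single-exon genes were enriched in polysomal RNA in both strains. In mutant-labelled worms, skr-7 stood at 12.10 FPKM in polysomal and 5.29 FPKM in total RNA, a log2 difference of 1.19 ± 0.22. In wild-type worms it stood at 45.6 FPKM in polysomal and 19.99 FPKM in total RNA, a log2 difference of 1.19 ± 0.20. Both had the smallest adjusted p in the authors' deposited table, 0.000207 by Cuffdiff. skr-14 matched its partner closely, with log2 differences of 1.20 ± 0.28 in mutant-labelled and 1.17 ± 0.23 in wild-type worms (Cuffdiff adjusted p = 0.000207 in both, authors' deposited table).

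The other 6 were also higher in polysomal RNA in both strains. skr-9 had the largest difference in mutant-labelled worms, 1.61 ± 0.36 (Cuffdiff adjusted p = 0.000393 in the authors' deposited table), and 1.19 ± 0.32 in wild type (adjusted p = 0.00167). skr-12 had the largest in wild type, 1.60 ± 0.29 (Cuffdiff adjusted p = 0.000207 in the authors' deposited table), and 1.06 ± 0.33 in mutant-labelled worms (adjusted p = 0.00583). skr-8 was at 1.41 ± 0.31 in mutant-labelled and 0.98 ± 0.28 in wild-type worms (Cuffdiff adjusted p = 0.000207 and 0.00121 in the authors' deposited table).

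The remaining differences were smaller, and each passed. skr-10 was at 1.03 ± 0.28 in mutant-labelled and 0.71 ± 0.26 in wild-type worms (Cuffdiff adjusted p = 0.00152 and 0.0152 in the authors' deposited table). skr-13 was at 0.90 ± 0.30 in mutant-labelled and 0.93 ± 0.27 in wild-type worms (Cuffdiff adjusted p = 0.0117 and 0.00279). skr-15 was at 0.78 ± 0.27 in mutant-labelled and 1.06 ± 0.23 in wild-type worms (Cuffdiff adjusted p = 0.0110 and 0.000207).

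The abundant pair was less enriched in polysomal RNA. skr-2 rose in polysomal against total RNA, with 0.46 ± 0.15 in mutant-labelled and 0.47 ± 0.15 in wild-type worms (Cuffdiff adjusted p = 0.00523 and 0.00692 in the authors' deposited table). skr-1 was at 0.18 ± 0.15 in mutant-labelled and 0.17 ± 0.16 in wild-type worms and passed in neither (Cuffdiff adjusted p = 0.296 and 0.354). For skr-1, skr-2, skr-7, skr-13 and skr-14, the differences in the 2 strains were within 0.03 of each other.

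In counts, 9 of the 10 genes were higher in polysomal RNA of mutant-labelled worms, beside 23.9% of 15425 entries tested (27% were lower, 50.8% passed in all). In wild type 9 of the 10 were higher, beside 24.7% of 15266 entries (26.9% were lower, 51.6% passed in all). The median of the 8 single-exon genes was 1.13 in mutant-labelled and 1.12 in wild-type worms, against 0.03 and 0.05 over all tested entries. Single-exon protein-coding genes outside the set had medians of 0.17 and 0.23. These counts depend on how the authors' test statistic is read: with a Wald test on the statistic as it stands, the count was 1 in mutant-labelled worms (skr-7) and 4 in wild type (skr-7, skr-12, skr-14 and skr-15). Of 14011 entries, 18.2% passed that test in mutant-labelled worms and 27.7% in wild type, in either direction. By that test the count in mutant-labelled worms does not stand above the share of all entries.

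**Figure D4:**
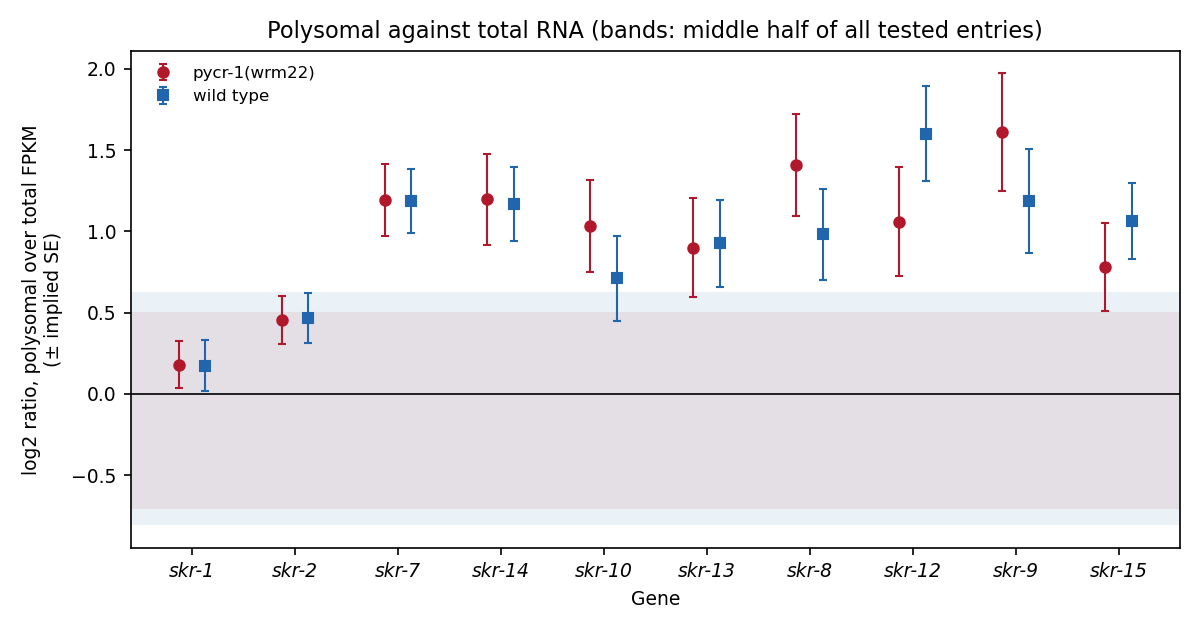
Log2 ratio of polysomal over total FPKM (vertical axis) in pycr-1(wrm22) worms (circles) and wild-type worms (squares) for the 10 genes, with implied SE as bars and shaded bands from the 25th to the 75th percentile of all tested entries in each strain. The points of all 8 single-exon genes lie above both bands, while skr-1 and skr-2 lie within them.

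The polysomal to total ratio itself was compared between the strains. As mutant-labelled minus wild type on the log2 scale, the difference was 0.004 for skr-7 and 0.03 for skr-14, with SE of 0.30 and 0.36. It ran from -0.54 ± 0.44 for skr-12 to 0.43 ± 0.42 for skr-8, with 6 of the 10 genes above 0 and 4 below. No difference exceeded 2 implied SE, and a shift smaller than that would not stand out. It is the difference of the strain comparisons from which the set was assembled, so no test is given.

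The other skr genes went either way between polysomal and total RNA. skr-3 and skr-4 rose in polysomal RNA, with log2 differences (authors' deposited table) of 1.13 ± 0.16 and 1.34 ± 0.17 in mutant-labelled worms and 1.19 ± 0.18 and 1.46 ± 0.20 in wild type. skr-11, skr-19 and skr-21 fell in both strains, skr-11 by 2.08 and 1.99 on the log2 scale in mutant-labelled and wild-type worms. Of the 10 tested, 4 rose and 3 fell in mutant-labelled worms and 4 rose and 4 fell in wild type. Passing either way was common: over all tested entries, 23.9% were higher and 27% lower in mutant-labelled worms, and 24.7% and 26.9% in wild type.

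The genes whose pattern over the 4 groups was most like that of skr-7 and skr-14 were sought by the distance between log2 profiles centred on their own mean, among 13714 candidates. col-135, a cuticle collagen gene, was nearest to both (distance 0.171 from skr-7 and 0.149 from skr-14). skr-7 and skr-14 were next nearest to each other (distance 0.197), followed by C36C5.12 and skr-9 for both. After these came Y106G6D.2 for skr-7 (distance 0.306) and F46E10.2 for skr-14 (distance 0.442). col-135 stood at 4.52 and 2.22 FPKM in mutant-labelled polysomal and total RNA, against 19.4 and 8.78 FPKM in wild-type polysomal and total RNA. For skr-15 the nearest were F46E10.2 (distance 0.183), C36C5.12 (0.190), skr-13 (0.194), T20D4.3 (0.250) and the C-type lectin gene clec-266 (0.260). skr-1 and skr-2 ranked no nearer than places 2840 and 1118 to any of these 3 genes. Candidates needed 1 FPKM in at least 1 group. T20D4.3 reached it in wild-type polysomal RNA only (1.09 FPKM), and C36C5.12 and Y106G6D.2 were below 1 FPKM in both mutant-labelled groups. The profiles also hold the strain differences by which the set was assembled. With 4 pooled values per gene the likeness is a description.

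Most genes for the partners of Skp1 in the ligase were lower in mutant-labelled worms before centring. Their falls were smaller than those of the single-exon genes, but that set was assembled for its falls, so nothing is read from this. cul-1, the scaffold of SCF ligases (listed in a shared entry with D2045.9), was at -0.42 ± 0.15 in both polysomal and total RNA (Cuffdiff adjusted p = 0.0109 and 0.0187 in the authors' deposited table). The RING subunit gene rbx-1 was at -0.56 ± 0.16 and -0.38 ± 0.15 (Cuffdiff adjusted p = 0.000736 and 0.0354). cul-6 went the other way, with 5.91 and 4.29 FPKM in mutant-labelled polysomal and total RNA, against 2.66 and 1.82 FPKM in wild-type polysomal and total RNA. Its rise was 1.15 ± 0.20 and 1.24 ± 0.21 on the log2 scale (Cuffdiff adjusted p = 0.000207 in both, authors' deposited table). Of the 8 cullin and RING genes, 1 rose and 5 fell in each fraction, with medians of -0.45 and -0.40 in polysomal and total RNA (-0.20 and -0.05 when centred). Beside the counts before centring, for this and the lists below, stand the shares of all tested entries. These were 14.8% higher and 23.9% lower in polysomal, and 18.6% higher and 27.9% lower in total RNA. When centred and tested again with divided variances, cul-6 still rose in both fractions, and falls numbered 1 in polysomal and 0 in total RNA. With a Wald test on the authors' statistic as it stands, 1 rose and 0 fell in each fraction. Of all 14011 entries, 4.6% passed that test in polysomal and 5.25% in total RNA, in either direction.

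F-box receptor genes, whose proteins bind Skp1 and choose the substrate, were also mostly lower before centring. Of 10 tested, 0 rose in either fraction, and 6 fell in polysomal and 7 in total RNA, with medians of -0.46 and -0.58 (-0.20 and -0.23 when centred). When centred, 2 rose and 0 fell in polysomal and 2 rose and 3 fell in total RNA. With the statistic as it stands, 0 fell in polysomal and 1 in total RNA. fog-2, which promotes spermatogenesis in the hermaphrodite, was at -0.61 ± 0.18 and -0.81 ± 0.16, and fsn-1, known for synapse formation, at -0.46 ± 0.20 and -0.88 ± 0.15 in the authors' deposited table. In polysomal against total RNA, 0 of the 10 F-box genes rose and 6 fell in each strain.

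Genes that attach the ubiquitin-like NED-8 to cullins, and the COP9 signalosome that removes it, counted 0 rises and 11 falls of 13 in polysomal RNA and 10 falls in total RNA. Their medians were -0.54 and -0.52 (-0.29 and -0.17 when centred), and when centred 1 fell in polysomal and 0 in total RNA. With the statistic as it stands, 0 fell in either fraction. Of the 10 genes for the synaptonemal complex and chromosome axis, with which SKR-1 and SKR-2 work, 0 rose, and 1 fell in polysomal and 8 in total RNA, with medians of -0.25 and -0.52 (0.005 and -0.17 when centred). When centred, 0 fell in polysomal and 2 in total RNA, and with the statistic as it stands 0 fell in either. Of 10 cell cycle and germline regulators tied to SCF ligases, 1 rose and 7 fell in polysomal RNA and 0 rose and 8 fell in total RNA, with medians of -0.68 and -0.71 (-0.42 and -0.36 when centred). When centred, 1 rose and 5 fell in each fraction, and with the statistic as it stands 1 fell in polysomal and 3 in total RNA. Among them, the cyclin D gene cyd-1 was at -1.27 ± 0.30 and -1.47 ± 0.26, and lin-41, which governs oocyte growth, at -1.09 ± 0.15 and -1.14 ± 0.15 in the authors' deposited table.

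Whether the members are genes of the germline and embryo cannot be checked in RNA of whole worms, so marker lists are given beside them. Early embryo markers (12 genes first transcribed in the embryo, mostly below 1 FPKM) summed to 7.18 and 6.13 FPKM in mutant-labelled polysomal and total RNA, against 20.1 and 19.96 FPKM in wild-type polysomal and total RNA. Of 8 tested, 0 rose in either fraction, 6 fell in polysomal and 7 in total RNA, with medians of -1.49 and -1.72. The tested genes were not the same in the 2 fractions. In total RNA end-1, tbx-35, tbx-37 and tbx-38 were not tested, at -1.08, -2.30, -0.34 and -1.08. Tested there were sdz-10, sdz-16, sdz-38 and end-3, all below 1 FPKM in every group. The medians thus depend on which genes could be tested, and are not set against those of the skr genes. With divided variances, 4 fell in each fraction, also when centred (medians -1.24 and -1.37). By the Wald test on the statistic as it stands, 2 fell in each fraction. vet-2 was at -1.50 ± 0.22 and -1.87 ± 0.19 in the authors' deposited table. Between polysomal and total RNA, 3 of 4 tested rose and 0 fell in mutant-labelled worms, and 4 of 11 rose and 2 fell in wild type.

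Oocyte and germline markers (12 genes) summed to 1284 and 3068 FPKM in mutant-labelled polysomal and total RNA, against 3033 and 5564 FPKM in wild-type polysomal and total RNA. Of 12 tested, 0 rose in either fraction, 10 fell in polysomal and 11 in total RNA, with medians of -1.54 and -0.89. When centred, 10 fell in polysomal and 9 in total RNA, with medians of -1.29 and -0.54. By the statistic as it stands, 9 fell in polysomal and 6 in total RNA. oma-2 was at -1.86 ± 0.16 and -1.20 ± 0.15 in the authors' deposited table. In polysomal against total RNA they went the opposite way to the single-exon skr genes: 1 rose and 10 fell of 12 in each strain, with medians of -1.55 in mutant-labelled and -0.94 in wild-type worms.

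Sperm markers (12 genes) summed to 1663 and 922 FPKM in mutant-labelled polysomal and total RNA, against 1465 and 707 FPKM in wild-type polysomal and total RNA. Of 12 tested, 7 rose in polysomal and 8 in total RNA and 0 fell, with medians of 0.43 and 0.61. When centred, 8 rose in polysomal and 11 in total RNA, with medians of 0.68 and 0.96. By the statistic as it stands, only 1 rose in polysomal and 0 in total RNA. Somatic markers (12 genes) summed to 3794 and 2525 FPKM in mutant-labelled polysomal and total RNA, against 4480 and 2632 FPKM in wild-type polysomal and total RNA. Of 12 tested, 1 rose and 2 fell in polysomal RNA and 3 rose and 0 fell in total RNA, with medians of 0.11 and 0.23. When centred, 4 rose and 0 fell in polysomal and 7 rose and 0 fell in total RNA, with medians of 0.37 and 0.58. By the statistic as it stands, 1 rose and 0 fell in each fraction. No marker of the 4 lists was at 0 in any group. The part of these markers' cells in the differences of the skr genes was not tested.

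**Figure D5:**
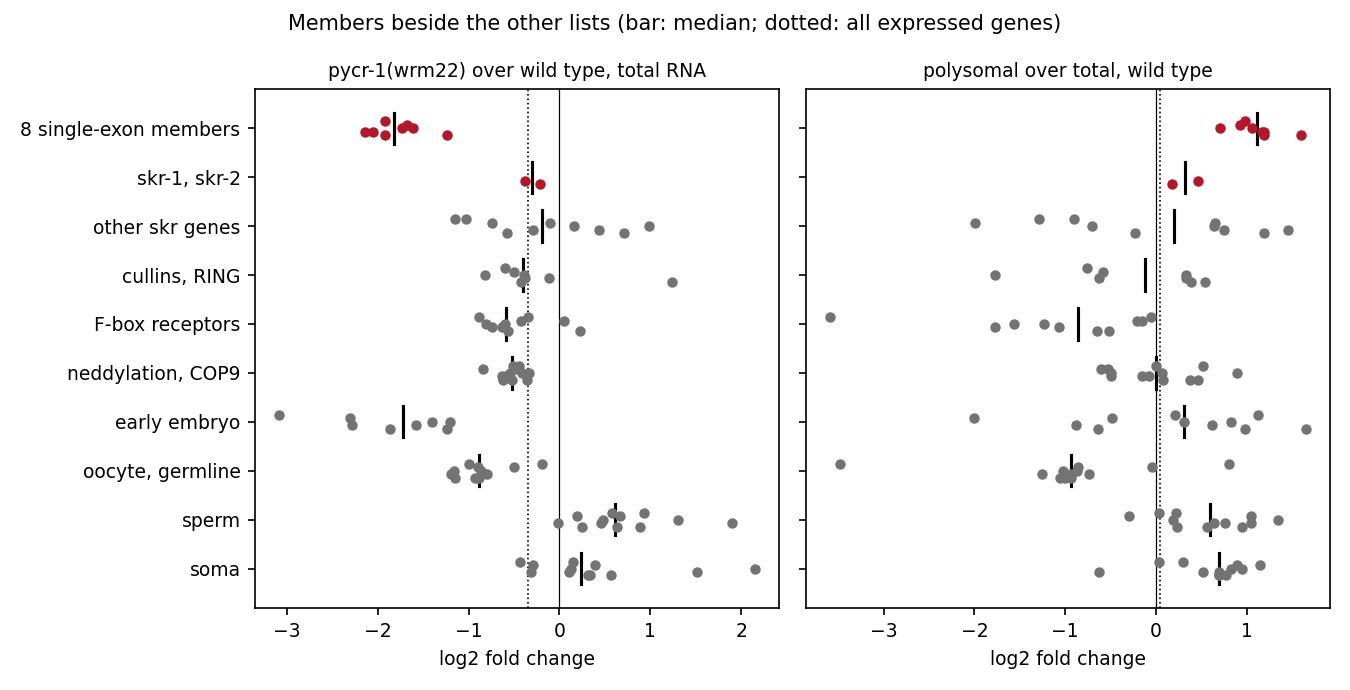
Log2 fold change of pycr-1(wrm22) over wild type in total RNA (left) and of polysomal over total RNA in wild type (right), for the members (red) and for the tested genes of the other lists (grey), with black bars at list medians and dotted lines at the median of expressed genes. On the left the 8 single-exon members have a median of -1.83, in a comparison by which the set was assembled. The early embryo markers have a median of -1.72 over tested genes only, several of them below 1 FPKM. On the right the 8 single-exon members (median 1.12) stand opposite the oocyte and germline markers (median -0.94).

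Reads of near-identical skr copies may be shared between them. How the authors treated reads that map to several places is not given in the sources used here, nor is strandedness, so the levels of closely related members cannot be fully separated.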

How the data were processed

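The deposited tables held 1 pooled FPKM per gene and group, made by the authors before deposit. The tools named per the submitters' processing notes are Cuffdiff 2.2.1, StringTie 1.3.4d, HISAT2 2.1.0 and FastQC 0.11.7, with build WBcel235. The authors' deposited table adds, for pairs of groups, a log2 fold change, a score (Cuffdiff's statistic), a p-value and a q-value, called adjusted p here. A gene passed where the q-value was under 0.05. Deposited start positions, 0-based, were raised by 1. Depth per library is unknown. The planned limma model per library could not be used, since no value per library was at hand.

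Each group's variance was solved from the authors' statistics and divided by its number of libraries to give the SE. The simulated data used as a check were built with that division, so they cannot show that it suits the authors' statistics. Members were matched by name; gene structure came from Ensembl release 115. The 10 members and all gene lists were chosen with earlier results of these data known. Named were all members and other skr genes, cul-1, cul-6 and rbx-1, pycr-1, the 5 nearest profiles (at log2 of FPKM plus 0.1), and from each list at most 4 genes with the largest mean change among those past the threshold; flanking genes were named after their values were seen. Thresholds, adjustment, filters, pseudocounts and centring were varied. Python 3.11.15, numpy 2.4.6 and pandas 2.3.3 were used. Comparisons between groups that differ in strain and fraction at once were left out.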

Additional observations from a re-analysis of the deposited data

How the results depend on the processing

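The 9 members that passed in each of the 4 comparisons numbered 7 to 9 under a threshold of 0.01, adjustment over the comparison alone, a filter at 1 FPKM, single-name entries, and a Wald test with divided variances, centred or not, both of which were chosen after seeing the data. Under these settings, 25.1% to 57.8% of all tested entries passed. With a Wald test on the authors' statistic as it stands, 5 members passed in polysomal and 5 in total RNA between the strains, and 1 passed in mutant-labelled and 4 in wild-type worms between polysomal and total RNA. Of all 14011 entries, 4.6% and 5.25% passed that test in polysomal and total RNA between the strains. Between polysomal and total RNA, 18.2% passed it in mutant-labelled and 27.7% in wild-type worms. The cause of the lower counts was not tested. Centring turned skr-1 to 0.048 in polysomal and 0.14 in total RNA between the strains. Of 260 alternative values of the members' log2 differences, 215 kept direction, call and size within error, 16 lost the call, 27 moved in size and 2 reversed. Most of the 260 come from polysomal against total RNA, where thresholds, adjustments and filters cannot change the log2 difference itself. Between the strains only pseudocounts and centring were varied for these values. Most of the moves in size and both reversals fell there. Of 280 alternative list counts, 57 moved by more than 1.5 times. With log2(FPKM + 1) the low genes shrink, skr-9 to -1.20 in total RNA. No paired analysis was possible because the table holds 1 pooled value per group, and leaving out each replicate was not run for the same reason. Depth is unknown, and genes near 1 FPKM have the widest errors.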
